A study of Mus musculus with 6 samples.

Results

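The genes described here were 10 feedback inhibitors of Wnt signaling, namely Axin2, Nkd1, Nkd2, Notum, Wif1, Rnf43, Znrf3, Apcdd1, Sp5 and Kremen1. They were chosen by name, with earlier results of these data known. Each was read from the probe sets that the platform annotation assigns to that symbol alone. All 10 were found, with 25 of the 45037 probe sets on the array, and they were 10 of 18193 genes measured. Each gene is described first by its brightest probe set, the one of largest average log2 level, and then by any others.

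Uterine RNA was hybridized to 6 Affymetrix arrays at 4 weeks of age, 3 arrays of control and 3 of mutant mice. Mutant mice were Pgr cre/+ Ctnnb1 f(ex3)/+, in which Cre recombinase made from the progesterone receptor locus removes exon 3 of 1 Ctnnb1 allele, and the β-catenin protein made from it escapes degradation. The labels call the controls wild type, and the study's methods describe control mice as Pgr cre/+ and as Ctnnb1 f(ex3)/+, so each control may carry Cre or the floxed allele alone. The Pgr promoter limits the model: Cre acts in each uterine compartment that expresses the receptor and also outside the uterus, in the pituitary, ovary and mammary gland. The methods state that uterine RNA of 3 mice per genotype was pooled, so the arrays of a group may not be separate animals and p-values measure only the spread between arrays, which may be technical. Whole uterus was used, and fewer cells of a type and less RNA per cell cannot be told apart in it.

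In the canonical Wnt pathway, Wnt ligands bind Frizzled and LRP receptors, a complex that destroys β-catenin is held back, and β-catenin enters the nucleus to act with LEF and TCF factors. Several genes switched on in this way encode proteins that damp the pathway at different levels: outside the cell on the ligand, in the membrane on the receptors, in the cytoplasm on Dishevelled or β-catenin, and in the nucleus. Such feedback is widely used as a readout of pathway activity, and Axin2 is its best known reporter. In the mouse uterus, Wnt signaling takes part in the growth of the uterine glands and in the response to ovarian hormones.

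All 10 genes were higher in mutant uteri, by 1.58-fold for Kremen1 to 59.1-fold for Notum, with a median of 5.45-fold. Each passed limma's test at an adjusted p below 0.05, over a range from 3.58e-05 to 0.0186, and in each the 3 mutant arrays lay above the 3 control arrays. Over all genes, 5.61% were called higher, 6.36% were called lower and 14.9% had every mutant array above every control array. The median log2 fold change of the 10 genes was 2.45, against -0.01 for all 18193 genes, and 6 of the 10 exceeded 2. As the 10 were chosen with earlier results known, these values describe them and are no independent test. Levels below are log2 intensities, in which a difference of 1 is a doubling, given in the order of replicates 1, 2 and 3. Probe sets differ in brightness for the same amount of RNA, so levels are compared between arrays and not between genes.

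**Figure D1:**
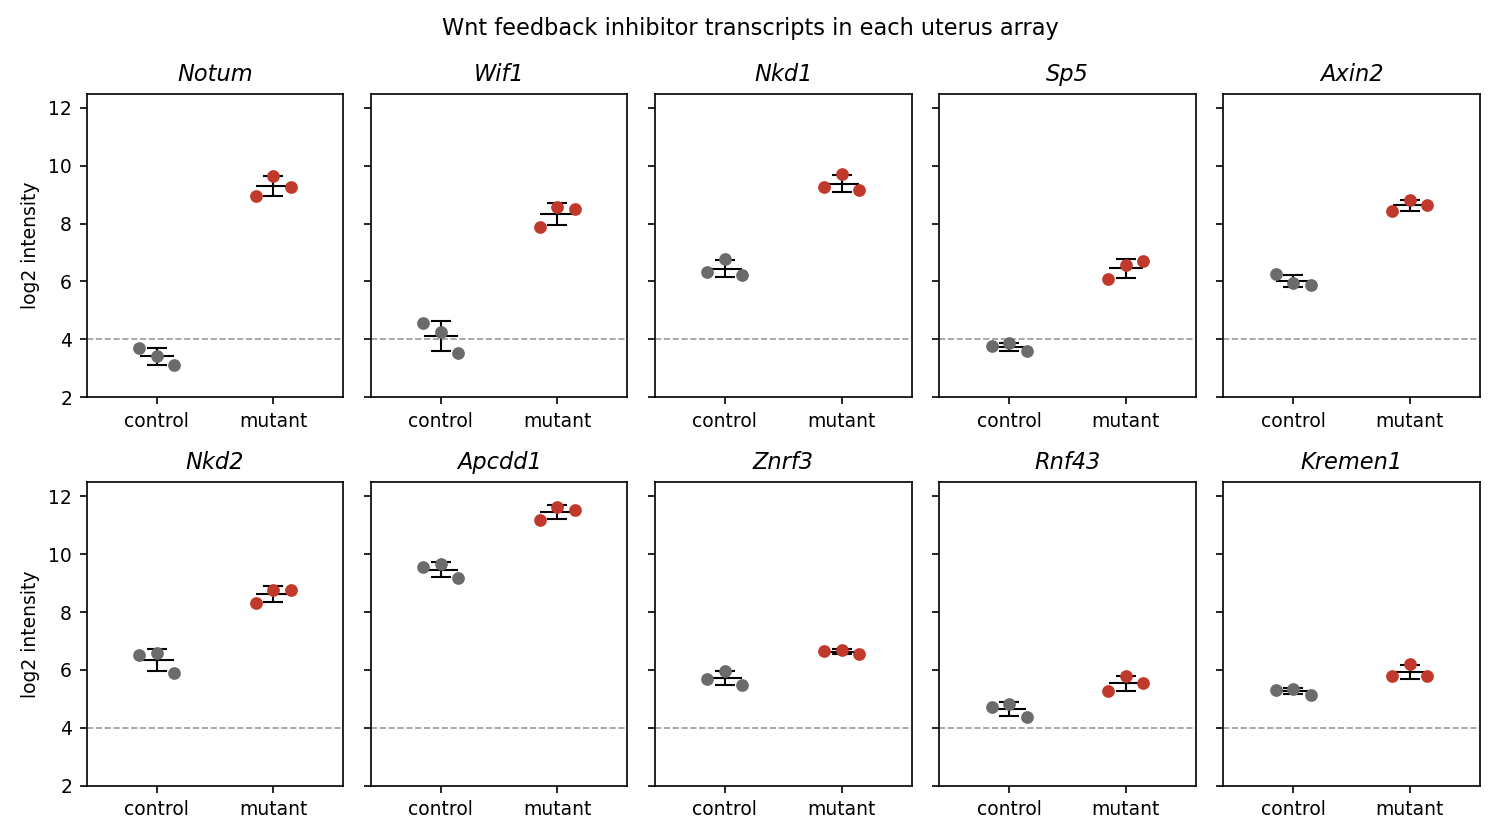
Log2 intensity (vertical axis, 1 scale for all panels) of each of the 10 genes in the 3 control (gray) and 3 mutant (red) arrays, ordered by fold change. Bars give the mean and SD of 3 arrays and the dashed line marks an intensity of 16 (log2 of 4). The mutant points lie above the control points in all 10 panels.

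The largest change among the inhibitors belonged to Notum, a secreted carboxylesterase that strips the lipid from Wnt proteins and so inactivates the ligand. Notum read 3.68, 3.44 and 3.11 in the control arrays and 8.97, 9.64 and 9.28 in the mutant arrays. Even the lowest mutant array stood 5.28 above the highest control array. The log2 fold change was 5.88 (SE 0.20, adjusted p = 3.58e-05), the third largest increase of all 18193 genes. On the deposited linear scale the control arrays measured 12.85, 10.84 and 8.66 and the mutant arrays 500.15, 797.22 and 623.41. The control values lay in the dim range under 16, which held 62.3% to 62.6% of probe sets on each array, and with such values set to 16 the log2 fold change was 5.30.

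Wif1, a secreted protein that binds Wnt ligands outside the cell, was next. Its levels were 4.56, 4.25 and 3.54 in control uteri and 7.90, 8.57 and 8.51 in mutant uteri. Control replicate 3 was the lowest array and the groups were separated by 3.34. The log2 fold change was 4.21 (SE 0.28, adjusted p = 0.000247), or 18.5-fold. Notum exceeded Wif1 by 1.67 in log2 fold change (SE 0.17 from the difference of the 2 genes on each array), and Wif1 exceeded the next gene, Nkd1, by 1.27 (SE 0.35). Notum and Wif1 were each read by a single probe set.

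Of the genes that act in the membrane, Apcdd1 changed most. Apcdd1 is a membrane glycoprotein that inhibits Wnt signaling at the receptor level. Its levels were 9.57, 9.67 and 9.17 in control arrays and 11.19, 11.65 and 11.53 in mutant arrays. The groups were 1.52 apart, and control replicate 3 and mutant replicate 1 were the lowest of their groups. The log2 fold change was 1.98 (SE 0.16, 3.96-fold, adjusted p = 0.000615). With 6 probe sets it was the most often sampled of the 10 genes, and all 6 were called higher, with log2 fold changes from 1.75 to 3.28. Of these, 3 probe sets, the brightest included, carry the x suffix by which the manufacturer marks possible cross-hybridization.

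Znrf3 and Rnf43 are paralogous transmembrane ubiquitin ligases that remove Frizzled receptors from the cell surface, an activity relieved by R-spondins with Lgr receptors. Znrf3 read 5.70, 5.96 and 5.48 in controls and 6.64, 6.70 and 6.54 in mutants, a log2 fold change of 0.91 (SE 0.13, 1.88-fold, adjusted p = 0.00521). Rnf43 read 4.73, 4.83 and 4.39 in controls and 5.28, 5.80 and 5.53 in mutants, a log2 fold change of 0.89 (SE 0.16, 1.85-fold, adjusted p = 0.0139). For both genes the groups did not overlap, by 0.58 for Znrf3 and 0.45 for Rnf43. Their fold changes differed by 0.03 (SE 0.15), within the spread of the arrays. Without control replicate 1 the Rnf43 value was 0.93 with an adjusted p of 0.0506.

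Kremen1 is a membrane receptor for Dkk proteins that takes the coreceptor Lrp6 off the cell surface. It had the smallest change of the 10 genes. Its levels were 5.32, 5.34 and 5.14 in control uteri and 5.81, 6.21 and 5.78 in mutant uteri. The arrays of the groups were 0.44 apart, with mutant replicate 2 highest. The log2 fold change was 0.66 (SE 0.13, adjusted p = 0.0186), which became 0.69 with an adjusted p of 0.063 without control replicate 1 and 0.60 with an adjusted p of 0.06 without control replicate 3. Both other Kremen1 probe sets were below 16 on every array, with log2 fold changes of -0.03 and -0.07, and the mean of the gene's 3 probe sets gave 0.19 with an adjusted p of 0.192.

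In the cytoplasm, Axin2 is a scaffold of the complex that destroys β-catenin. Axin2 read 6.26, 5.94 and 5.88 in control arrays and 8.45, 8.82 and 8.65 in mutant arrays. The groups were 2.19 apart and the arrays of each group lay close together, with SDs of 0.20 and 0.19. The log2 fold change was 2.61 (SE 0.14, 6.12-fold, adjusted p = 0.000107). A dimmer Axin2 probe set, below 16 on all 6 arrays, was also called higher, by 1.05 (SE 0.19, adjusted p = 0.0151 over all probe sets).

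Nkd1 and Nkd2 are paralogs that bind Dishevelled, the protein that passes the signal on from Frizzled. Nkd1 read 6.33, 6.77 and 6.22 in controls and 9.26, 9.71 and 9.18 in mutants, a log2 fold change of 2.94 (SE 0.19, 7.69-fold, adjusted p = 0.000203). Nkd2 read 6.52, 6.60 and 5.90 in controls and 8.31, 8.77 and 8.78 in mutants, a log2 fold change of 2.28 (SE 0.21, 4.85-fold, adjusted p = 0.000935). The gap between groups was 2.41 for Nkd1 and 1.71 for Nkd2, and control replicate 3 was the lowest array for both. The other probe sets of Nkd1 gave 2.49, 1.04 and 0.15, the last of them below 16 on all arrays and not called. For Nkd2 a pair of further probe sets gave 2.34 and 2.36, and the fourth, which carries the x suffix, gave 0.46 with overlapping groups and an adjusted p of 0.122.

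In the nucleus, Sp5 is a transcription factor of the Sp family that is induced by Wnt signaling and restrains other Wnt target genes. Sp5 read 3.79, 3.86 and 3.59 in controls, all below an intensity of 16, and 6.07, 6.57 and 6.72 in mutants. The groups were 2.21 apart and mutant replicate 1 was the lowest mutant array. The log2 fold change was 2.71 (SE 0.17, 6.53-fold, adjusted p = 0.00019), and 2.45 with values under 16 set to 16.

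Several of these genes are known as targets of β-catenin, which reaches DNA through LEF and TCF factors. The RefSeq sequences (GRCm38.p6) of the 250 bases before the gene start were therefore searched for TCF/LEF motif forms on both strands. The forms searched start with CTTTG and end in AT, AA, TT or TA. The sequence table gave a window for 6 of the 10 genes (Axin2, Nkd1, Nkd2, Rnf43, Sp5 and Wif1) and 7 windows in all, as Rnf43 has 2. Sp5 was the single gene with a motif and held 2. Of all 32851 windows of this length, 14.8% held at least 1 motif and 1.43% at least 2. The Sp5 window, with its motifs in capitals, is shown beside that of Wif1, the gene with the largest change among those with a window, in which none of these letters were found. Both are written 5′ to 3′ on the plus strand, the strand of both genes.
Sp5, chr2:70474673-70474922 (+): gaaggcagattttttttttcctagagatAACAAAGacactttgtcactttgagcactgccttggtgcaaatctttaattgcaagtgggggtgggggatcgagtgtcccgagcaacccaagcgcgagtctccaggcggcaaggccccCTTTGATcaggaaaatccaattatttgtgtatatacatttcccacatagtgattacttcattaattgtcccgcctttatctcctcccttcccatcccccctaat
Wif1, chr10:121033754-121034003 (+): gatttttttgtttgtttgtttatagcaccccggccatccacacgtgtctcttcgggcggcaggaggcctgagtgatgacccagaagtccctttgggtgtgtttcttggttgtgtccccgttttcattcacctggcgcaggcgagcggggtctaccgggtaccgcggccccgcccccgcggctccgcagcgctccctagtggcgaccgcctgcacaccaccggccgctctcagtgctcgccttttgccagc
In Sp5 the first capitals are CTTTGTT read from the opposite strand, 222 to 216 bases before the start, and the second are CTTTGAT, 104 to 98 bases before it, and they do not overlap. A match is no evidence of binding, and its lack says only that these letters are not in this window. The windows of the 6 genes ranged from 44.4% to 69.2% in GC content, against a median of 52.4% over all windows, with Axin2 highest. They held 2 to 24 CpG pairs, against a median of 6.

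Ordered by size, the log2 fold changes fell from Notum through Wif1, Nkd1, Sp5, Axin2, Nkd2, Apcdd1, Znrf3 and Rnf43 to Kremen1. The order of Nkd1, Sp5 and Axin2 was not resolved by these arrays, as each pair of them differed by less than 2 standard errors of that difference, with gaps of 0.24, 0.33 and 0.09. Nkd2 lay below Nkd1 by 0.67 (SE 0.24) and below Sp5 by 0.43 (SE 0.15), while its gap to Axin2 was 0.34 (SE 0.20). Apcdd1 exceeded Znrf3 by 1.07 (SE 0.15), which set Znrf3, Rnf43 and Kremen1 apart from the other 7. Of the 3 membrane proteins that lower the amount of receptor or coreceptor, none reached 2-fold. Dim probe sets can understate a change, and sizes therefore compare the probe sets as well as the genes.

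Over all 25 probe sets of the 10 genes, 20 were called higher and none lower, against 3.49% of all 45037 probe sets called higher. In 21 probe sets every mutant array lay above every control array. How many of all 45037 probe sets were separated in this way was not counted. The share known is that of genes, 14.9%, so the count of 21 is given without a matching background. The 5 probe sets not called were the fourth of Nkd2 and, each below 16 on all arrays, 1 of Nkd1, 1 of Znrf3 and 2 of Kremen1. Averaging all probe sets of a gene lowered the log2 fold change of Axin2 to 1.83, of Nkd1 to 1.66 and of Znrf3 to 0.61, all still called, and raised that of Apcdd1 to 2.41.

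**Figure D2:**
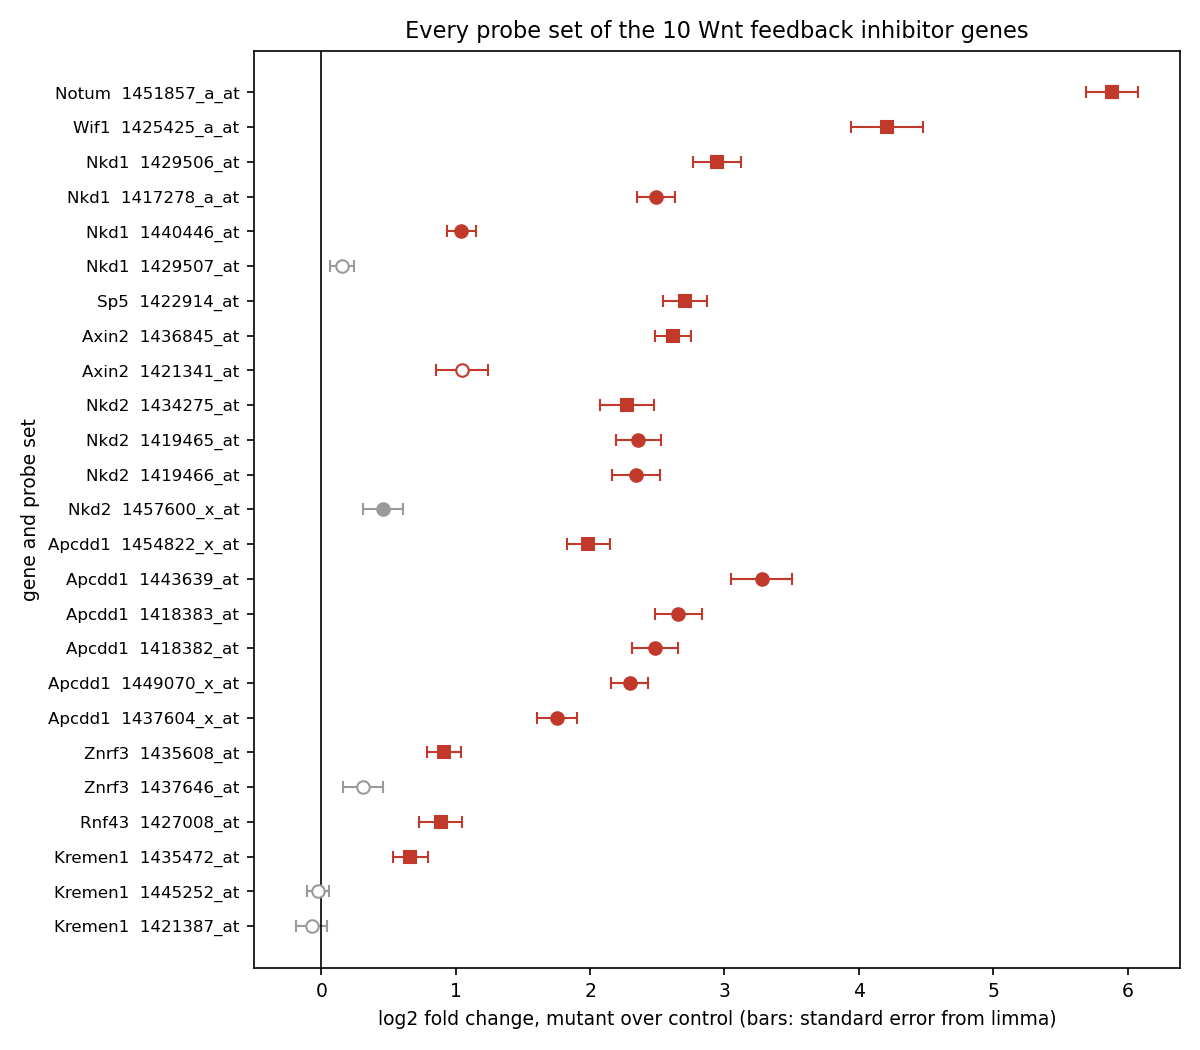
Log2 fold change, mutant over control (horizontal axis), of all 25 probe sets of the 10 genes, with bars for the limma standard error. Squares mark the probe set that represents the gene, red marks adjusted p below 0.05 and open symbols mark probe sets below 16 on every array. The 5 gray symbols near 0 are the probe sets not called, and 4 of them are open.

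The same arrays were low or high in most of these genes. Control replicate 3 was the lowest control array in 10 of 10 genes, with a mean deviation of -0.27 from the control mean, against 0.13 for control replicate 1 and 0.15 for control replicate 2. Among mutant arrays, replicate 1 was lowest in 7 genes and replicate 2 highest in 8. Their mean shifts from the control mean were 2.27, 2.73 and 2.53. How often each array was lowest or highest over all genes was not counted, so these counts may not be particular to the 10 genes. In Rnf43 the shift of mutant replicate 1 was 62.1% of the mean shift of the other mutant arrays, and in Znrf3 it was 103%.

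Markers of other cells moved with the groups in part. Of 6 adipocyte markers measured, 2 were called higher, the resistin gene Retn by 2.35 (SE 0.59, adjusted p = 0.0407) and the lipid droplet gene Cidec by 1.82 (SE 0.29, adjusted p = 0.009), and the median log2 fold change was 2.01. In each of the 6, every mutant array lay above every control array, as in 14.9% of all genes. Adipoq at 2.48 (adjusted p = 0.0735) and Fabp4 at 2.20 (adjusted p = 0.102) were not called. Retn lost the call in 4 of 6 fits that left out an array, with adjusted p of 0.0664 to 0.146. The mean level of the 6 markers was 6.62, 6.93 and 5.02 in control replicates 1, 2 and 3 and 7.82, 8.29 and 7.66 in the mutant arrays, so control replicate 3 was also lowest for fat markers, and 1 of the 6 markers was below 16 on all arrays. Without control replicate 3 the median log2 fold change of the 10 inhibitors was 2.30 and 9 of them were called. The arrays kept in that fit still differed in fat markers, with means of 6.62 and 6.93 in controls and 7.66 to 8.29 in mutants. The part of fat in the inhibitor values was not tested. Of 8 macrophage markers, 3 were called higher, among them the complement genes C1qb by 0.56 and C1qa by 0.50, which lost the call without control replicate 1 (adjusted p of 0.0528 and 0.0563), with a mean level of 6.89 to 6.93 in controls and 7.08 to 7.24 in mutants.

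Mean levels of markers of uterine epithelium (8.77 to 8.94 in controls, 8.58 to 9.03 in mutants), smooth muscle (9.21 to 9.51 and 9.04 to 9.42) and stroma (10.18 to 10.26 and 10.23 to 10.36) overlapped between groups, and every one of these markers exceeded 16 on some array. The means hide single markers that moved apart. Of 7 epithelial markers 1 was higher, the gland factor Foxa2 by 1.54 (SE 0.17, adjusted p = 0.00193), and 1 lower, the keratin gene Krt18 with -0.80 (SE 0.12, adjusted p = 0.00584). All epithelial markers but Foxa2 had negative log2 fold changes, from -0.04 for Epcam to -0.80 for Krt18. The epithelial median was -0.31, so the overlap of the means rests on Foxa2 in part. Of 8 stromal markers 1 was higher, the transcription factor gene Hand2 by 1.49 (SE 0.18, adjusted p = 0.00315). The stromal median was -0.10. Apart from Hand2 and Hoxa10 (0.07) the stromal markers had negative log2 fold changes, down to -0.33 for Pdgfra, none of them called. Of 8 smooth muscle markers none was called, with a median of -0.10. Foxa2, Krt18 and Hand2 kept the call in all 6 fits that left out an array. Of 5 natural killer cell markers, 1 was higher, the granzyme gene Gzma by 2.73 (SE 0.21, adjusted p = 0.000494), and 1 lower, the receptor gene Ncr1 with -0.54 (SE 0.14, adjusted p = 0.0469). Their means were 3.12 to 3.44 in controls and 3.69 to 3.80 in mutants, and 3 were below 16 on all arrays. The median log2 fold change of the 5 was 0.01, with Prf1 at 0.48, Eomes at 0.01 and Klrk1 at -0.29, none of them called. Ncr1 lost the call in 6 of 6 fits that left out an array, with adjusted p of 0.0587 to 0.153. Of 4 markers of ciliated and oviduct cells, 2 were higher, Tekt1 by 0.44 (adjusted p = 0.0131) and Foxj1 by 0.34 (adjusted p = 0.0401). These 2 were the ones below 16 on all arrays. The means of the 4 were 2.66 to 3.08 in controls and 3.19 to 4.47 in mutants. In mutant replicate 3, the array with the highest mean, Ovgp1 read 8.01. Ovgp1, named here after its value was seen, was not called (adjusted p = 0.35). Foxj1 lost the call in 6 of 6 such fits (adjusted p of 0.0575 to 0.116) and Tekt1 without control replicate 1 (0.0655). Of 6 endothelial markers 1 was lower, the receptor gene Tek with -0.85 (adjusted p = 0.0282), which lost the call in 4 of 6 fits (0.0676 to 0.093), and of 5 ovary markers none was called. The part of cell content in the values of the inhibitors was not tested.

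**Figure D3:**
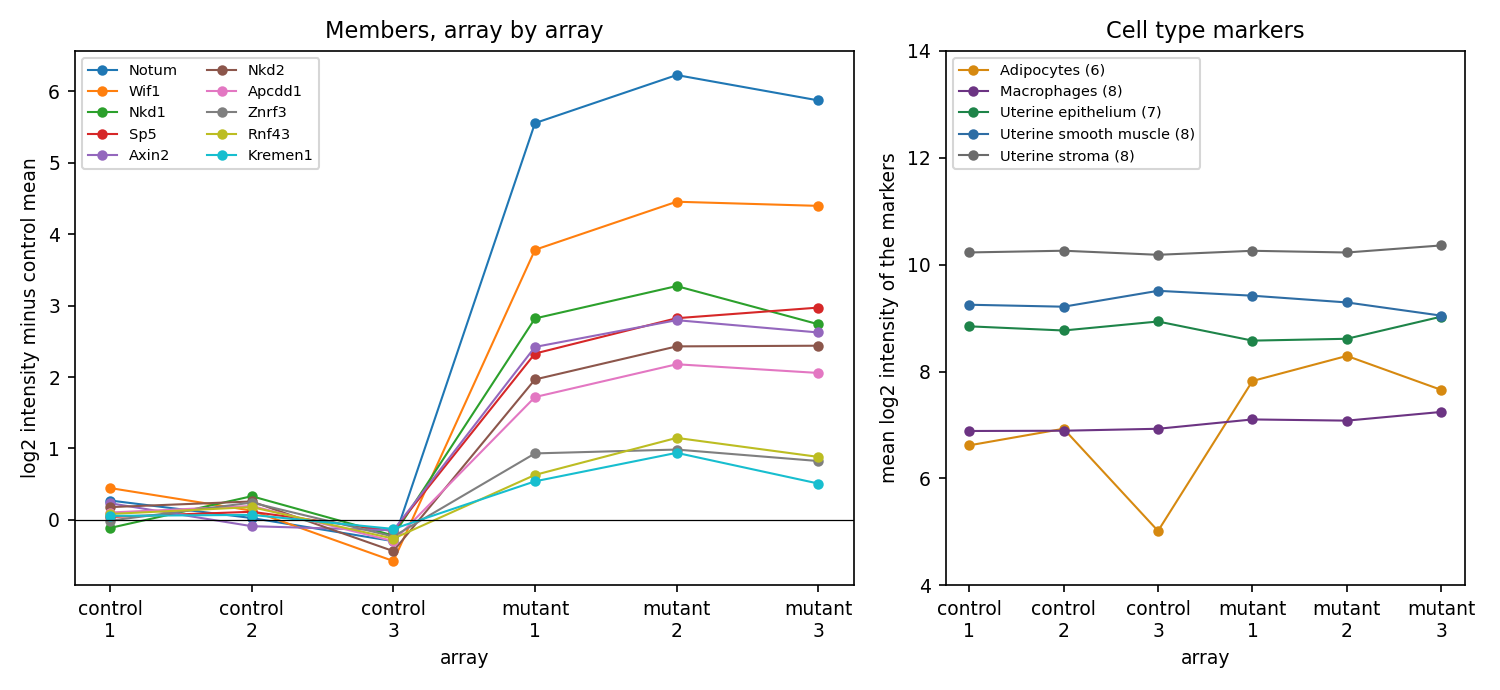
Left, the log2 intensity of each of the 10 genes minus its control mean, on each of the 6 arrays. Right, the mean log2 intensity of 5 lists of cell type markers, with the number of markers in parentheses. Lines join values of 1 gene or list and imply no order of replicates. Control replicate 3 is lowest of the controls for all 10 genes and for the adipocyte markers.

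The inhibitors were then set beside the genes they act with. The lists held 98 measured genes, of which 19 were called higher and 12 lower, where 5.61% and 6.36% of all genes were, and the medians of the 6 lists lay between -0.05 and 0.19. The altered gene itself, Ctnnb1, read 11.51, 11.54 and 11.53 in controls and 11.72, 11.92 and 11.93 in mutants. Its log2 fold change was 0.33 (SE 0.09, adjusted p = 0.0498), and without single arrays the adjusted p lay between 0.106 and 0.155 in the 5 of 6 fits that lost the call. The probe set does not by itself show the deletion of exon 3.

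Among 21 genes for Wnt ligands, the targets of Notum and Wif1, and for ligand secretion, 5 were higher, 3 lower and 13 not called. Their median was -0.05, and 11 were below 16 on all arrays. Wnt16, a ligand gene, read 6.19, 6.49 and 5.88 in controls and 8.63, 9.12 and 9.25 in mutants, a log2 fold change of 2.81 (SE 0.20, adjusted p = 0.000343). Wnt8b rose by 1.03 (SE 0.20, adjusted p = 0.0162) from and to levels in the dim range below 16. Wnt7a, a ligand made by the uterine epithelium, read 6.87, 6.96 and 6.70 in controls and 5.69, 4.64 and 5.08 in mutants, a log2 fold change of -1.71 (SE 0.24, adjusted p = 0.00531). Porcn, which attaches the lipid that Notum removes, changed by -1.13 (SE 0.15, adjusted p = 0.00418). Wls, which carries Wnt proteins to the cell surface and is named here after its value was seen, changed by -0.76 (SE 0.14, adjusted p = 0.0128), with adjusted p of 0.0526 to 0.0592 without control replicate 1 or mutant replicate 2. Wnt16 was thus a ligand gene with a change of the size seen for Sp5 and Nkd1, while both genes for the processing and transport of ligands fell.

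Of 15 Frizzled, LRP and related receptors, 3 were higher, 2 lower and 10 not called, with a median of -0.02. In this list Rnf43 and Znrf3 act on the Frizzled receptors and Kremen1 on Lrp6. Fzd1 changed by 0.70 (SE 0.14, adjusted p = 0.0211) and lost the call in 3 of 6 fits that left out an array (control replicate 1 or either of mutant replicates 2 and 3), with adjusted p of 0.0522 to 0.0705. Fzd10 rose by 0.63 (SE 0.09, adjusted p = 0.00683), although the mean of its probe sets gave 0.30 with an adjusted p of 0.0901. Ror1, a tyrosine kinase receptor for Wnt5a, fell by 1.33 on the log2 scale (SE 0.16, adjusted p = 0.00291), and Fzd5 fell by 0.88 (SE 0.07, adjusted p = 0.000619). The LRP coreceptor gene Lrp6, the target of Kremen1, had a log2 fold change of 0.04 with an adjusted p of 0.851.

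Of 7 R-spondin and Lgr genes, whose products oppose Rnf43 and Znrf3, 1 was higher, 2 lower and 4 not called, with a median of -0.03. Rspo1 ranged from 6.98 to 7.22 in controls and read 6.11, 5.18 and 4.79 in mutants, a log2 fold change of -1.70 (SE 0.30, adjusted p = 0.012), with an adjusted p of 0.0546 without mutant replicate 2. Rspo3 changed by -0.84 (SE 0.14, adjusted p = 0.00904), or by -0.47 with an adjusted p of 0.0505 as the mean of its probe sets. Every mutant array was below every control array for both Rspo1 and Rspo3. Lgr5, a receptor for R-spondins and itself a known Wnt target in the intestine, changed by 0.40 (SE 0.10, adjusted p = 0.0461) and lost the call in 5 of 6 fits without an array, with adjusted p of 0.0661 to 0.162.

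Beyond the 10 genes, 19 other secreted or membrane antagonists of Wnt were measured. Of these, 5 were higher, 1 lower and 13 not called, with a median of 0.19, and 9 were below 16 on all arrays. Frzb, a secreted decoy with a Frizzled-like domain, read 5.28, 5.30 and 4.92 in controls and 6.22, 6.57 and 7.11 in mutants, a log2 fold change of 1.46 (SE 0.22, adjusted p = 0.0069). Its relative Sfrp2 rose by 1.12 (SE 0.16, adjusted p = 0.00558). Dkk2, a ligand of Kremen1, changed by -0.87 (SE 0.19, adjusted p = 0.0264) and lost the call without control replicate 1, control replicate 2 or mutant replicate 2, with adjusted p of 0.0667 to 0.101. Dkk1, a Wnt target in many tissues and named here after its value was seen, had a log2 fold change of -0.03 with an adjusted p of 0.863. Its levels, 2.24 to 2.43, were below 16 on all 6 arrays, where a change may not be seen.

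Of 20 genes for Dishevelled and the destruction complex, with which Axin2, Nkd1 and Nkd2 act, 2 were higher, 1 lower and 17 not called, with a median of -0.05. Dact1, which binds Dishevelled as the Nkd proteins do, read 6.34, 6.33 and 6.47 in controls and 7.20, 7.53 and 7.43 in mutants, a log2 fold change of 1.01 (SE 0.11, adjusted p = 0.00167). The other calls, Csnk1e at 0.35 (adjusted p = 0.0264) and Dact2 at -0.56 (adjusted p = 0.0302), were lost without single arrays, at adjusted p of 0.0714 to 0.0828 and of 0.0676 to 0.103.

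Of 16 transcription factors and cofactors of the pathway, 3 were higher, 3 lower and 10 not called, with a median of 0.09. Lef1, the DNA-binding partner of β-catenin and a known target of the pathway, read 5.57, 5.52 and 5.29 in controls and 7.67, 7.98 and 7.78 in mutants. The groups did not overlap, and the log2 fold change of 2.35 (SE 0.11, adjusted p = 9.56e-05) lay within the range of the 10 inhibitors. The change of Tle4, a corepressor, was 0.44 (adjusted p = 0.0339), that of the coactivator Bcl9 was -0.87 (adjusted p = 0.0265), and that of the repressor Tcf7l1 was -0.56 (adjusted p = 0.0151). Without single arrays these 3 lost the call, at adjusted p of 0.0837 to 0.109, of 0.0533 to 0.0793 and of 0.0563 to 0.0692.

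**Figure D4:**
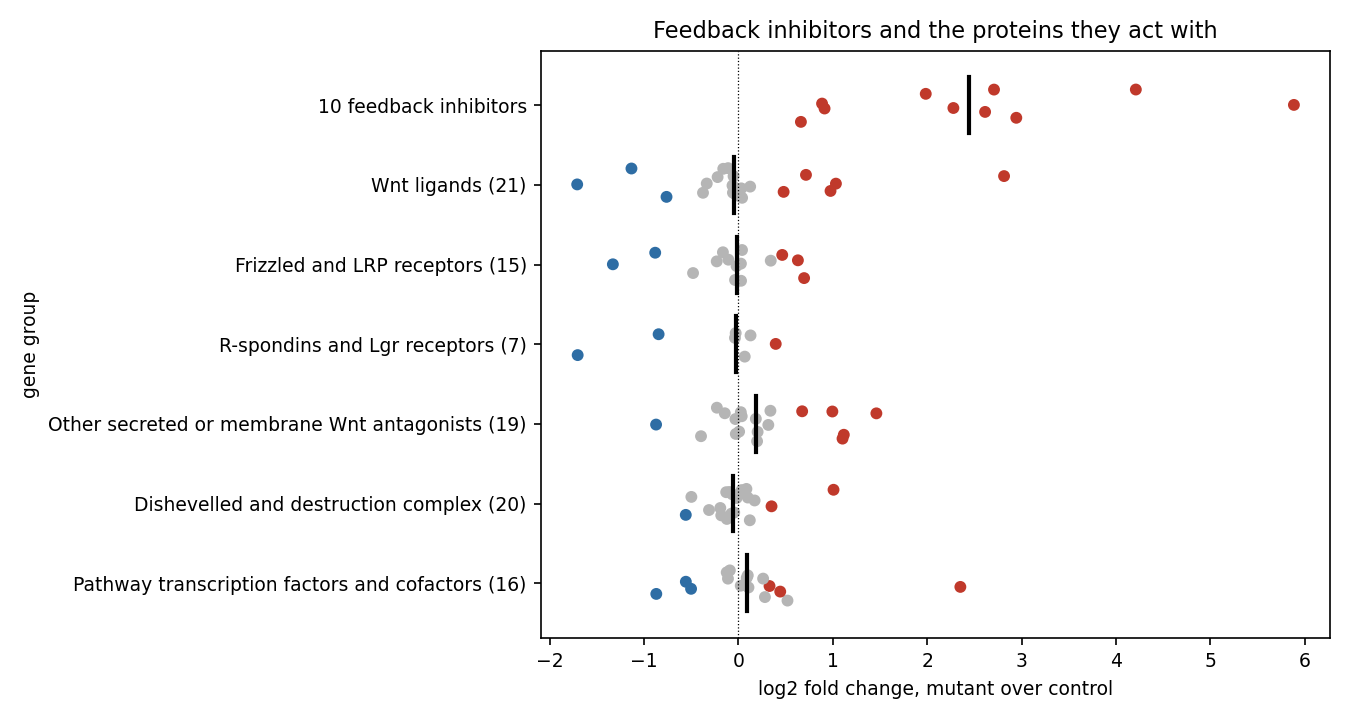
Log2 fold change, mutant over control (horizontal axis), of the 10 inhibitors and of 6 lists of pathway genes, with the number of measured genes in parentheses. The list of ligands includes Porcn and Wls. Red marks genes called higher, blue genes called lower and gray genes not called, and each black bar is the median of a list. All 10 inhibitors lie right of 0, while the medians of the lists lie between -0.05 and 0.19.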

How the data were processed

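The data were 6 Affymetrix arrays of mouse uterine RNA, grouped by their labels. The authors deposited linear intensities per probe set, already scaled between arrays; the submitters' processing notes name RMA, with no version. Array medians were 7.23 to 7.42, and array pairs correlated at r = 0.992 to 0.996 (controls), 0.994 (mutants) and 0.981 to 0.990 (between groups). No detection calls or batches were given, and the number of arrays limits precision. A test on log2 values had been planned; log2 was taken of the intensities (floor 1).

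Of 45037 probe sets, 34945 had 1 symbol, 932 several (not named) and 9160 none. The brightest single-symbol probe set stood for each of 18193 genes. Groups were compared with limma 3.58.1 (R 4.3.3; lmFit, eBayes, no block) and Benjamini-Hochberg adjustment over all genes, or over all probe sets in a second fit; the script was tested on simulated data. "Dim" means an intensity below 16. The members and lists were chosen with earlier results of these data known. Named genes were all members, Ctnnb1 and, per list, up to 2 called genes with the largest change each way. Others are named as chosen after their values were seen, as were Lrp6, the cell type markers not called and the genes of the closing section. Alternatives covered scaling, probe set choice, low-value filter, floor, intensity trend, array weights, replicate block, the methods' t-test, a fold and unadjusted p rule, left-out arrays, motif forms and window length.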

Additional observations from a re-analysis of the deposited data

How the results depend on the processing

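All 10 genes kept their direction in the 17 alternative fits, and 160 of 170 values kept the call. With the methods' t-test and Benjamini-Hochberg adjustment 5 of 10 members were called (Axin2, Nkd1, Notum, Wif1 and Sp5), with adjusted p of 0.0552 for Nkd2, 0.119 for Rnf43, 0.0778 for Znrf3, 0.0514 for Apcdd1 and 0.121 for Kremen1; over all genes it called 105 higher and 39 lower. A fold over 1.5 with an unadjusted p under 0.05 called 744 higher and 757 lower. Leaving out single arrays gave 8 to 10 members and, over all genes, 480 to 971 higher and 372 to 1139 lower. The counts were 8 members, 480 and 372 without control replicate 1, and 10 members, 580 and 493 if mutant replicate 2 was left out, and 760 were lower if mutant replicate 3 and 682 if control replicate 2 was left out. With control replicate 2 and mutant replicate 1 both left out, 9 members were called and Kremen1 was not (0.76, adjusted p = 0.0523). Of the 98 partner genes, the t-test called 1 higher and 1 lower, the fit without control replicate 1 called 9 and 6, and that without mutant replicate 2 called 10 and 5. The replicate block called all 10 members, 966 genes higher, 1085 lower, and 14 and 11 partners. Same-numbered arrays deviated together by r = 0.01, 0.21 and 0.16, and differently numbered arrays by r of -0.21 to 0.11. The labels name no pairs, and the main fit used none. The motif count, 1 gene, was the same with 2 motif forms or the whole promoter sequence. Values below 16 limit the size of the folds of Notum, Sp5 and Wif1 and the reading of dim partners.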

Other observations

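The places of the 10 genes were looked at after their values were seen, in the RefSeq gene order of GRCm38.p6. Of the 10, 5 lie on chromosome 11 (Axin2, Notum, Rnf43, Znrf3 and Kremen1), which holds 8.0% of the 18142 measured genes with a place. Znrf3 and Kremen1 are nearest measured neighbors of each other. The nearest measured genes on each side that are no members number 18, of which 4 were higher, none lower and 14 not called, with a median log2 fold change of 0.11, and 5.61% of all genes were higher.

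Next to Notum, Aspscr1, which encodes a tether of the glucose transporter GLUT4, read 5.70, 5.85 and 5.72 in controls and 7.61, 7.99 and 7.72 in mutants, a log2 fold change of 2.02 (SE 0.11, adjusted p = 0.000134). Its other probe set, below 16 on all arrays, gave 0.25. Next to Kremen1, Emid1, an extracellular matrix gene, changed by 1.69 (SE 0.11, adjusted p = 0.000262), more than Kremen1 itself. Next to Apcdd1, the noncoding RNA 2700046A07Rik read 4.01, 4.58 and 3.58 in controls and 7.05, 7.57 and 7.78 in mutants, a log2 fold change of 3.41 (SE 0.27, adjusted p = 0.000545), and its other probe set gave 2.71. Next to Axin2, Cep112 changed by 0.70 (SE 0.08, adjusted p = 0.00209), with -0.31 and 0.21 in its other probe sets, both below 16 on all arrays. All 4 kept the call in the 6 fits without an array, but with the mean of its probe sets Cep112 gave 0.20 with an adjusted p of 0.129. Xbp1, on the other side of Znrf3, had a log2 fold change of 0.05 with an adjusted p of 0.844.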
